A study of Mus musculus with 3 samples.

Results

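NKG2D is an activating receptor of natural killer (NK) cells and T cells, and it was described here through 7 genes, 2 for the receptor and 5 for its stress ligands. The receptor genes were *Klrk1*, which encodes NKG2D, and *Hcst*, which encodes its adaptor DAP10. The ligand genes were *Raet1e*, *Raet1d*, *Ulbp1*, *H60b* and *H60c*, which encode surface proteins related to MHC class I. These genes were chosen by name, for their roles, from the 32285 genes of the count matrices. *Raet1a*, *Raet1b*, *Raet1c* and *H60a*, the other mouse ligand genes looked for, were not among the genes listed there.

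The study profiled dorsal skin of 25-week-old female C3H/HeN mice by droplet-based 3′ single-cell RNA sequencing, with 1 library per group made from the pooled skin of 7 to 8 mice. The Neg library came from unaffected mice, labelled as a negative (vehicle) control. The AA library came from the alopecia areata (AA) model, in which hair loss follows transfer of cultured lymph node cells from mice with AA. The AA+Ab library came from AA model mice that also received an antibody neutralizing the chemokine CXCL12, with dose and timing not given in the sources used here. All mice were C3H/HeN without a transgene named in the labels, and the AA model rests on transferred cells, so lymphocytes of the donor and of the host cannot be told apart. With 1 library per group, mice were not replicated, no p-value was computed, and the intervals below are exact 95% intervals that cover counting error only.

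Cells with at most 10% mitochondrial UMIs (unique molecular identifiers, 1 per captured RNA molecule) and at least 200 genes were used, and likely doublets were left out. This kept 6215 Neg, 9525 AA and 9006 AA+Ab cells, holding 104614219, 115351751 and 117525911 UMIs. The median cell was deeper in Neg, with 13227 UMIs, than in AA (10683) or AA+Ab (10849.5). The libraries were skin as labelled, with a UMI of the keratin *Krt14* in 94.9%, 96.6% and 92.1% of cells. The Neg and AA libraries shared 18 cell barcodes, Neg and AA+Ab 17, and AA and AA+Ab 28, which is under 1% of either library in each pair.

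Engagement of NKG2D by a ligand signals through DAP10 and lowers the threshold at which a cytotoxic lymphocyte kills or releases cytokine. Most cells carry little ligand, and DNA damage, proliferation, heat shock or infection can raise it. In AA, CD8 T cells bearing NKG2D gather around the hair follicle, and ligands of the ULBP family are among the genes linked to the human disease.

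The 5 ligand genes all lie on chromosome 10, where *Raet1e*, *Raet1d* and *H60b* overlap. By the GENCODE M21 annotation of GRCm38, *Klrk1* lies at chr6:129610323-129623864 on the minus strand and *Hcst* at chr7:30417712-30419854 on the minus strand. The 3′ end of *Hcst* lies 126 bases from the 3′ end of *Tyrobp*, which encodes the related adaptor DAP12 and lies on the opposite strand. *H60c* lies at chr10:3256208-3267771 and *Ulbp1* at chr10:7440362-7473638, both on the minus strand. *Raet1e*, at chr10:22158569-22374139 on the plus strand, contains both *H60b* (chr10:22158586-22288849) and *Raet1d* (chr10:22360552-22374139), also on the plus strand.

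*Raet1d* shared 363 of its 1441 exonic bases with *Raet1e*, and *H60b* shared 133 of 1213. Near the 3′ end, which the assay reads, 82.9% of the 451 windows of 50 bases taken from *Raet1d* transcripts were also found in *Raet1e*, and 55.1% of the 1086 windows of *Raet1e* in *Raet1d*. No other pair of the 7 genes shared such a window. Counts of *Raet1e* and *Raet1d* are therefore uncertain as a split between these genes, and reads from the shared part may be missing from both.

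The likeness extends to the bases before the RefSeq transcription starts. GENCODE places the start of *Raet1d* further upstream, so its stretch lies within the gene span given above. The following stretches, from RefSeq on GRCm38.p6, are shown because they are nearly one sequence: of 248 aligned bases, 3 differed (98.8% identity), and the capitals mark them. *Raet1e* is given at its second start site, chr10:22173249-22173496, and *Raet1d* at chr10:22361644-22361891, both plus strand and 5′ to 3′.

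Raet1e: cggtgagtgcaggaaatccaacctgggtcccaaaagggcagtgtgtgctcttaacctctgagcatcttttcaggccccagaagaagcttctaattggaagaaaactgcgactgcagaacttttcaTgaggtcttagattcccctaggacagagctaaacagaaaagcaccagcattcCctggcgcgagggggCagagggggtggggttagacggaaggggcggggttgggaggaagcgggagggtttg

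Raet1d: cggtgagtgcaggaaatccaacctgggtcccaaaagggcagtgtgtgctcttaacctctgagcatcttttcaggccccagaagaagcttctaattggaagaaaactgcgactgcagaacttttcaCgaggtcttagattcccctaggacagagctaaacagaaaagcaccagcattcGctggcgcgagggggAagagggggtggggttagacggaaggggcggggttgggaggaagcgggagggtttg

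The starts of *Ulbp1* and *H60c*, the ligands with the most UMIs in keratinocytes, and of the receptor gene *Klrk1* are given as the 250 bases before each start, 5′ to 3′ on the minus strand. Their positions are chr10:7473478-7473727, chr10:3267772-3268021 and chr6:129623865-129624114. The *Ulbp1* window runs into the GENCODE gene span given above, so it precedes the RefSeq start only. Capitals mark matches to the motifs searched on both strands.

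Ulbp1: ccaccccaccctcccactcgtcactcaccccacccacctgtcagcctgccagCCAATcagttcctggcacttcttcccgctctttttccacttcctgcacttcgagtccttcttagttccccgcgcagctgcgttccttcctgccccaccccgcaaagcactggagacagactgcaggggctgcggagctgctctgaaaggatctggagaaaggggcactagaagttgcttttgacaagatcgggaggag

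H60c: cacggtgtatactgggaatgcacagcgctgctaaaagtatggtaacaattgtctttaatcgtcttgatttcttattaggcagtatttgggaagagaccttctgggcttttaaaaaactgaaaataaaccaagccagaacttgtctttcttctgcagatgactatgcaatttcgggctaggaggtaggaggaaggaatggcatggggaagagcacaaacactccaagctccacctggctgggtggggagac

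Klrk1: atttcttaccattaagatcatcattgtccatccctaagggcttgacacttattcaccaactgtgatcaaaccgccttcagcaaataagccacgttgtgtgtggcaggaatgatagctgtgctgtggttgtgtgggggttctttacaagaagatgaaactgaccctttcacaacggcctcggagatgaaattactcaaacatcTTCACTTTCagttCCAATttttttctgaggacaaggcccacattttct

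RefSeq windows were found for 6 of the 7 genes, all but *H60b*, with 2 start sites for *Raet1e*. The motifs were GAS (TTCNNNGAA, held by 7.02% of 32851 windows of this length), ISRE (GAAANNGAA, 7.13%), E2F (TTTNNCGC, 4.28%), AP-1 (TGANTCA, 6.75%) and the CCAAT box (CCAAT, 33.8%). The CCAAT box was found in *Ulbp1*, 198 bases before the start, in *Klrk1*, in *Raet1d* and at the second start of *Raet1e*. The ISRE letters, known from genes induced by interferon, were found in *Klrk1*, on the reverse strand 48 bases before the start, and in no other window of these genes. The letters of GAS, E2F and AP-1 were in none of these windows.

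Over all cells, *Klrk1* and *H60c* were the members past 1.5-fold between AA and Neg. Levels are given as CPM, the UMIs of a gene in 1e6 UMIs of the same cells. The *Klrk1* level was 2.91 in Neg, 5.97 in AA and 4.23 in AA+Ab, from 304, 689 and 497 UMIs. The *H60c* level was 13.0, 20.6 and 16.0, from 1361, 2371 and 1881 UMIs. Both were highest in AA and intermediate in AA+Ab, with no overlap of the intervals.

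The *Hcst* level was 4.93, 6.54 and 6.17 (516, 754 and 725 UMIs), and the *Ulbp1* level was 4.07, 3.35 and 4.25 (426, 387 and 499 UMIs). The *Raet1e* level was 1.91, 1.87 and 2.12, with 200, 216 and 249 UMIs. *Hcst* was thus lower in Neg than in the other libraries, *Ulbp1* was lowest in AA, and the intervals of *Raet1e* overlapped. *Raet1d* had 4, 0 and 2 UMIs and *H60b* had 4, 10 and 4, too few for any comparison; the 0 of AA allows up to 0.0260 CPM.

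A gene was called higher or lower when its ratio of levels passed 1.5-fold with at least 20 UMIs over both libraries. Between AA and Neg, 5 members could be tested in this way over all cells, and 2 were higher, *Klrk1* at 2.06-fold and *H60c* at 1.58-fold. Of all 19219 genes tested, 7.73% were higher and 9.24% lower by this rule. Between AA+Ab and AA none of the 5 members passed, where 6.78% of genes were higher and 10.3% lower. With each cell thinned to 1000 UMIs 3 of them did in that comparison, *Klrk1* at -0.67, *Ulbp1* at 0.87 and *Raet1e* at 0.60 on the log2 scale, the last 2 on 36 and 21 and on 64 and 45 UMIs. The comparisons of AA with Neg and of AA+Ab with AA share the AA library.

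The genes differed in part in the cells that held them, while *Klrk1*, *Hcst* and *Raet1e* shared the T cell-like cluster. Cells were clustered, and names were given from marker genes, so that a T cell cluster stands for T cell-like cells. The T cell-like and gamma-delta T cell-like clusters held 55.4% and 33.8% of *Klrk1* UMIs, 58.4% and 25.3% of *Hcst* UMIs, and 60.2% and 0.15% of *Raet1e* UMIs. A further 15.3% of *Raet1e* UMIs came from dendritic cell (DC) and macrophage-like cells and 14.6% from monocyte and neutrophil-like cells. *H60c* UMIs came to 83.8% from basal, suprabasal and interferon-responding epidermis-like cells, and *Ulbp1* UMIs came to 42.9% from cycling keratinocyte-like cells, here clusters 6 and 7. Another cluster with the markers of cycling cells, led by *Wif1*, was counted with the other keratinocytes. *Klrk1* and *Raet1e* were thus found mostly in immune cells, and *H60c* and *Ulbp1* mostly in keratinocytes.

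**Figure D1:**
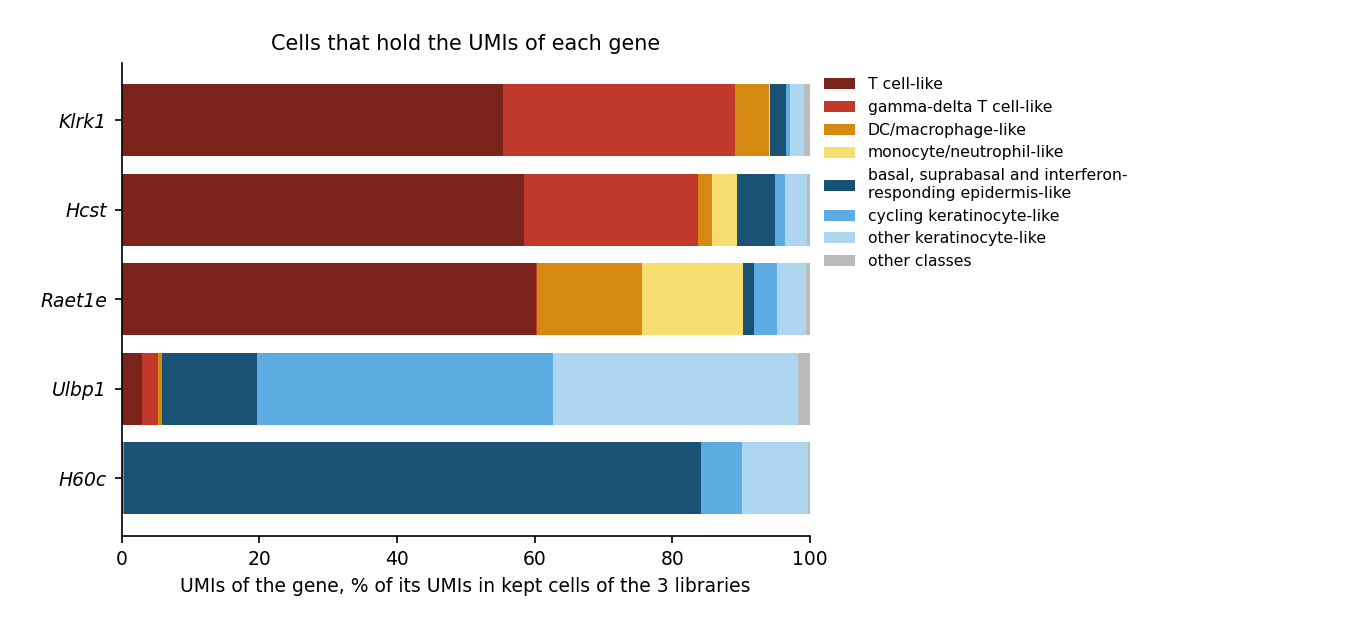
Share of each gene's UMIs (%, x axis) held by each kind of cell, over kept cells of the 3 libraries together; *Raet1d* (6 UMIs) and *H60b* (18 UMIs) are not drawn. *Klrk1*, *Hcst* and *Raet1e* lie mostly in T cell-like clusters, *H60c* in epidermis-like clusters, and *Ulbp1* in cycling and other keratinocyte-like clusters.

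The question for the receptor was whether lymphocytes of AA skin carried more of it. Lymphocytes were 250 Neg, 466 AA and 412 AA+Ab cells, or 4.02%, 4.89% and 4.57% of the cells kept. Their *Klrk1* level was 176 in Neg (interval 155 to 198), 314 in AA (289 to 340) and 253 in AA+Ab (230 to 278). The intervals did not overlap. On the log2 scale AA was above Neg by 0.84 (0.63 to 1.05), and AA+Ab to AA gave -0.31 (-0.49 to -0.13). AA+Ab was above Neg, by 0.53 (0.31 to 0.75). Over 10 recomputed values this last ratio ran from 0.27 to 1.115, the highest past 1.5-fold. With the cells clustered at resolution 1.5 in place of 0.8, AA to Neg was 0.29, no longer past 1.5-fold, and AA+Ab to AA turned to 0.078.

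In lymphocytes 4 of the 7 members could be tested between AA and Neg, and *Klrk1* and *Ulbp1* were higher, where 11.3% of 10063 genes were higher and 18.1% lower. Between AA+Ab and AA none of 4 passed, where 13.7% of genes were higher and 9.85% lower. *Klrk1* did pass in that comparison with cells thinned to 1000 UMIs (-0.64). It also passed with lymphocytes taken by their own UMIs, as the cells with at least 2 UMIs over 7 lymphocyte genes (-0.97). Of this last set, 387 of 808 AA and 518 of 893 AA+Ab cells lay in keratinocyte clusters, with 78.8% and 86.7% of its UMIs. Its levels are thus not those of lymphocytes alone.

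A *Klrk1* UMI was found in 43.2% of Neg, 50.9% of AA and 42.7% of AA+Ab lymphocytes, at median depths of 5042.5, 3705 and 4092 UMIs. With each cell thinned to 1000 UMIs the shares were 13.3%, 24.5% and 18.3%, after leaving out 2, 17 and 18 shallower cells. AA was highest in both, and thinned its interval (20.6% to 28.7%) lay above that of Neg (9.34% to 18.2%), while that of AA+Ab (14.6% to 22.5%) overlapped both. In keratinocytes, which lack NKG2D, the unthinned shares were 0.223%, 0.411% and 0.151% at median depths of 14143.5, 11196.5 and 11512. Thinned, a *Klrk1* UMI was found in 0 of 5370 Neg keratinocytes, which allows up to 0.0559%, and in 0.0235% and 0.0253% of AA and AA+Ab keratinocytes. The shares in lymphocytes were far above those in keratinocytes in each library.

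The *Klrk1* level of CD8 T cell-like cells was 189 in Neg (34 cells), 439 in AA (263 cells) and 336 in AA+Ab (101 cells). AA was above Neg by 1.22 (0.74 to 1.73) on the log2 scale, and AA+Ab was between them, at -0.38 (-0.67 to -0.10) against AA. Neg CD8 T cell-like cells had 39 *Klrk1* UMIs in all, 10 of them in 1 cell. The marker *Cd8a* was itself less often seen in them: it had a UMI in 3 of 10 Neg cells with *Klrk1* and 7 of 24 without, in 100 of 157 and 60 of 106 AA cells, and in 31 of 47 and 13 of 54 AA+Ab cells.

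Gamma-delta T cell-like cells, which in mouse epidermis carry NKG2D at rest, had *Klrk1* levels of 238, 228 and 284. The log2 ratio of AA to Neg was -0.06 (-0.45 to 0.32), so no difference was detectable at this depth. NK cell-like cells had 512, 468 and 956, from only 19, 21 and 13 cells. AA+Ab was above AA there by 1.03 (0.48 to 1.58), on 60 and 57 UMIs.

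Innate lymphoid cell (ILC)-like cells had *Klrk1* levels of 11, 52.1 and 9.89, on 2, 12 and 3 UMIs. CD4 T cell-like cells, led by the regulatory T cell gene *Foxp3* among others, had 0, 1 and 0 *Klrk1* UMIs in 5, 16 and 17 cells. In order of level, NK cell-like cells came first in Neg, CD8 and NK cell-like cells did not differ beyond their intervals in AA, and ILC-like cells were below CD8, gamma-delta T and NK cell-like cells throughout. The 0 UMIs of 5 Neg CD4 T cell-like cells allow up to 262, so their place in Neg is not known. In Neg, CD8 and gamma-delta T cell-like cells had overlapping intervals.

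**Figure D2:**
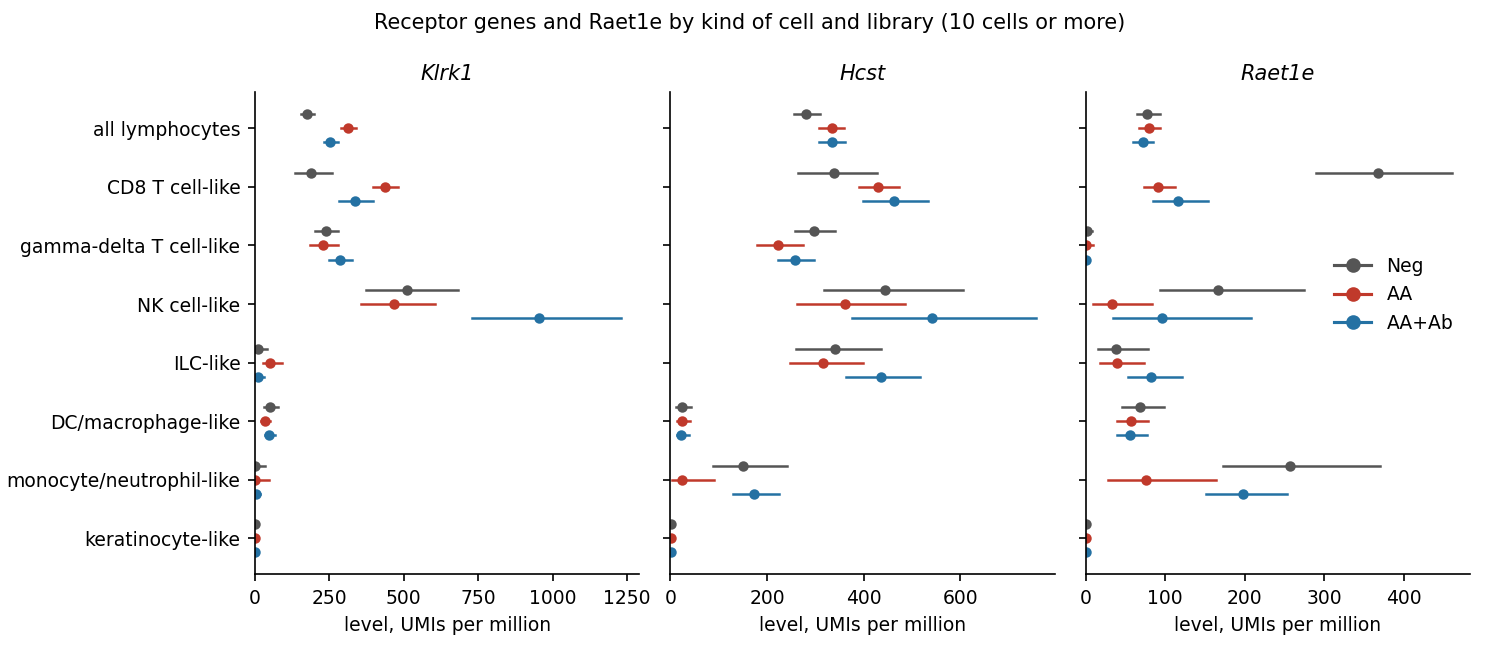
Levels of *Klrk1*, *Hcst* and *Raet1e* (CPM, x axes) by kind of cell and library; points are single libraries, bars exact 95% Poisson intervals for counting error only. The CD8 T cell-like row shows *Klrk1* highest in AA (439) and *Raet1e* highest in Neg (368).

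The mix of lymphocytes differed between libraries together with the *Klrk1* level. The CD8 T cell-like sub-cluster led by *Ccl4*, *Cd8a* and *Ifng* made up 1.60% of Neg, 45.7% of AA and 13.3% of AA+Ab lymphocytes (4, 213 and 55 cells). A gamma-delta T cell-like sub-cluster led by *Gpr141* was 30.8%, 7.30% and 24.5%. The first was therefore large in AA, where the second was small. Most Neg CD8 T cell-like cells, 26 of 34, lay in the sub-cluster led by *Lef1*, *S1pr1* and *Ccr7*. These are genes of resting and recirculating T cells, while 213 of 263 AA cells lay in the *Ccl4* sub-cluster. The *Lef1* sub-cluster was named from 3 of 5 markers, *Cd8a*, *Cd8b1* and *Ccl5*, at or above their level in the other lymphocytes. Its CD8 name is thus less certain, and CD8 T cell-like values of Neg and AA come mostly from different sub-clusters.

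Within the *Ccl4* sub-cluster the *Klrk1* level was 482 in AA and 477 in AA+Ab, a log2 difference of -0.02 (-0.36 to 0.32), and 557 in Neg on 12 UMIs. Within the *Lef1* sub-cluster it was 123 in Neg, 283 in AA and 101 in AA+Ab, on 16, 44 and 17 UMIs. AA was above Neg there by 1.21 (0.35 to 2.13), and AA+Ab was below AA, at -1.49 (-2.39 to -0.66). In the cycling CD8 T cell-like sub-cluster AA+Ab was above AA by 0.84 (0.04 to 1.62), at 637 and 357, with Neg at 201, on 26, 33 and 11 UMIs. In the unnamed sub-cluster led by *Il23r* the levels were 108, 270 and 281, with AA+Ab to AA at 0.06 (-0.83 to 0.95). AA+Ab was thus below AA beyond the interval in the *Lef1* sub-cluster but not in these others. Outside these, the ILC-like sub-cluster led by *Il5* had 67.6 in AA and 13.8 in AA+Ab, on 12 and 3 UMIs. The NK cell-like and both gamma-delta T cell-like sub-clusters had higher levels in AA+Ab than in AA, and those left had few UMIs in these libraries. With each sub-cluster weighted to its share of Neg lymphocytes, a choice made after the data were seen, the log2 ratio of AA to Neg was 0.15 and that of AA+Ab to AA was 0.30. At equal shares of sub-clusters the difference between AA and Neg was thus smaller, and that between AA+Ab and AA turned direction. The weighting takes the level of the *Ccl4* sub-cluster in Neg from 4 cells.

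**Figure D3:**
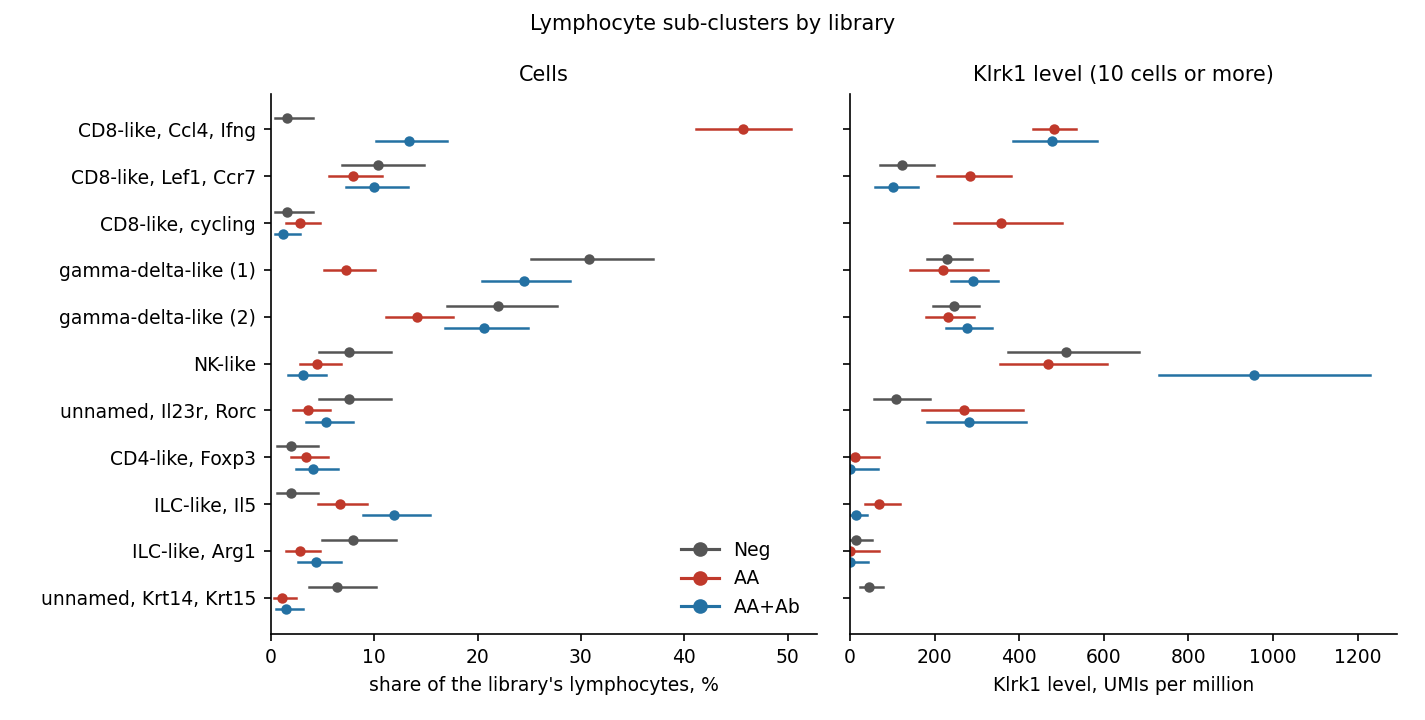
Left, share of each library's lymphocytes (%) in each sub-cluster with exact 95% binomial intervals; right, *Klrk1* level (CPM) in the same sub-clusters where a library had 10 cells or more, with 95% Poisson intervals. The CD8 T cell-like sub-cluster with *Ccl4* and *Ifng* was 45.7% of AA and 1.60% of Neg lymphocytes, with *Klrk1* near 480 in AA and AA+Ab.

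Keratinocyte RNA also moved with the libraries. The 18 keratinocyte markers summed to 4779, 2536 and 1958 CPM in Neg, AA and AA+Ab lymphocytes, with *Krt14* the most abundant (1541, 870 and 558) and none at 0. Their part in the lymphocyte differences was tested in 1 way: without the sub-cluster led by keratinocyte genes (16, 5 and 6 cells), *Klrk1* in AA against Neg gave 0.67 (0.46 to 0.89), and *Hcst* gave 0.07 (-0.11 to 0.25). The *Hcst* difference was thus within counting error without 27 cells.

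The adaptor was spread more widely than the receptor. The *Hcst* level of lymphocytes was 281 in Neg, 334 in AA and 334 in AA+Ab. AA was above Neg by 0.25 (0.07 to 0.43) on the log2 scale, under 1.5-fold, and AA+Ab to AA was 0.00 (-0.16 to 0.17). AA to Neg was 0.018 at clustering resolution 1.5 and turned to -0.28 with sub-clusters weighted to Neg. With lymphocytes taken by their own UMIs, *Hcst* was past 1.5-fold, at 1.57 for AA to Neg, -0.74 for AA+Ab to AA and 0.84 for AA+Ab to Neg. Keratinocyte clusters held 90.3%, 78.8% and 86.7% of the UMIs of that set in Neg, AA and AA+Ab. These ratios are thus not of lymphocytes alone. A *Hcst* UMI was found in 64.4%, 58.2% and 58.7% of lymphocytes, against 0.929%, 0.751% and 0.730% of keratinocytes. Thinned, the lymphocyte shares were 25.8%, 28.1% and 24.6%, with overlapping intervals.

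ILC-like cells, with less *Klrk1* than CD8, gamma-delta T and NK cell-like cells, had *Hcst* levels of 340, 317 and 435. These were close to those of CD8 T cell-like cells (339, 430 and 462). Gamma-delta T cell-like cells had 297, 223 and 258, and AA was below Neg there, at -0.41 (-0.79 to -0.04). Monocyte and neutrophil-like cells had 151, 25.1 and 172 on 17, 2 and 54 UMIs, with *Klrk1* at 0, 0 and 1 UMI. CD4 T cell-like cells had *Hcst* levels of 350, 73.4 and 161, on 4, 6 and 9 UMIs. *Hcst* was thus present in cells with little or no *Klrk1*. Its levels among lymphocyte kinds were closer to each other than those of *Klrk1*.

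Some *Klrk1* lay outside lymphocytes. DC and macrophage-like cells had levels of 49.8, 33.7 and 48.0, on 21, 22 and 31 UMIs. Of these cells, 246 held no UMI of the T, gamma-delta T and NK cell marker lists, and they still had 55 *Klrk1* UMIs, a level of 44.0. The ratio of AA to Neg in this class was -0.56 on the log2 scale with an interval from -1.49 to 0.37.

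Lymphocytes with a *Klrk1* UMI were compared with the rest over the 3 libraries, whose mix of kinds differs. There, *Ifng*, the interferon gene of activated T and NK cells, was found in 31.1% of 521 lymphocytes with *Klrk1* and in 10.7% of 607 without. *Prf1*, perforin, was found in 51.6% and 28.7%, *Tyrobp* in 11.3% and 1.81%, and *Hcst* in 65.1% and 55.2%. *Prf1*, *Ifng* and *Tyrobp* had the higher share beside *Klrk1* in each library, but *Hcst* did not in Neg (63.9% and 64.8%). Among NK cell-like cells *Prf1* was in 58.7% of 46 cells with *Klrk1* and in 71.4% of 7 without. *Raet1e* went the other way, with 11.7% and 20.3%. The cells with *Klrk1* were deeper (medians 4604 and 3804 UMIs), and the part of depth in these shares was not tested.

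Genes of the receptor pathway were examined as lists. Among 12 tested genes of DAP10 and DAP12 signalling, 2 were higher and 1 lower in AA than in Neg lymphocytes, with a median log2 ratio of 0.06, beside -0.06 over all genes, of which 11.3% were higher and 18.1% lower. Its shares were near or below those of all genes. The higher ones were *Pik3ca*, the PI3-kinase subunit (139 against 86.3), and *Syk*, a kinase recruited by DAP12 (10.7 against 3.92). *Tyrobp* was lower, at 86.9 against 131. In AA+Ab against AA, 13 were tested and *Pik3ca*, *Plcg2* and *Syk* were lower (85.4, 18.8 and 5.69 against 139, 32.2 and 10.7), with none higher and a median of -0.19, where 13.7% of all genes were higher and 9.85% lower.

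Of 12 NK receptor genes, 3 were higher and 4 lower in AA than in Neg lymphocytes, with a median of -0.54, beside 11.3% and 18.1% of all genes. *Cd226*, the activating receptor DNAM-1, was at 200 against 56.9, and *Klrc1* and *Klrc2*, of the NKG2A and NKG2C receptors, at 149 against 96.1 and 139 against 88.2. *Klrb1b*, an inhibitory receptor, was lower, at 77.7 against 166. In AA+Ab against AA, 4 were higher and 4 lower (13.7% and 9.85% of all genes) with a median of -0.09, among them *Cd226* at 116, *Klrc1* at 81.4 and *Klrb1b* at 199. *Cd244a*, another receptor of NK and CD8 T cells, was higher in AA+Ab (338 against 214). The list had members on both sides in both comparisons. NK cell-like cells were 7.60%, 4.51% and 3.16% of Neg, AA and AA+Ab lymphocytes. The part of this share in the values of the list was not tested.

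Of 9 cytotoxic and activation genes tested, 6 were higher and 1 lower in AA than in Neg lymphocytes, with a median of 1.66, beside 11.3% and 18.1% of all genes. *Ccl5*, a T cell chemokine, was at 2707 against 801, *Cd69*, an early activation marker, at 633 against 201, and *Ifng* at 347 against 28.1. *Prf1* was lower, at 174 against 308. In AA+Ab against AA, 10 were tested, 2 were higher and 4 lower (13.7% and 9.85% of all genes), with a median of -0.36, and *Ccl5* was at 1088, *Ifng* at 117 and *Prf1* at 338. One of the higher genes, *Gzmc*, had 608 of its 611 AA+Ab UMIs in 1 cell, and 156 of its 206 AA UMIs in 1 cell. *Ifng* is also a leading gene of the *Ccl4* sub-cluster, so its values describe the same cells. Within gamma-delta T cell-like cells, which were 132 of 250 Neg, 100 of 466 AA and 186 of 412 AA+Ab lymphocytes, *Prf1* was at 564, 578 and 631 and passed 1.5-fold in neither comparison.

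The ligands divided between cell classes. *H60c* encodes a ligand known from skin, where it can be seen by gamma-delta T cells of the epidermis. Its level in keratinocytes was 13.5 in Neg (12.8 to 14.2), 21.4 in AA (20.5 to 22.3) and 16.7 in AA+Ab (16.0 to 17.5), from 1344, 2360 and 1874 UMIs. The intervals did not overlap. The log2 ratio was 0.66 (0.57 to 0.76) for AA to Neg, -0.35 (-0.44 to -0.27) for AA+Ab to AA, and 0.31 (0.21 to 0.41) for AA+Ab to Neg.

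In keratinocytes 5 of the 7 members could be tested between AA and Neg, and *H60c* and *Klrk1* were higher, where 6.08% of 18268 genes were higher and 9.07% lower. The *Klrk1* call rests on 47 and 14 UMIs in 8520 and 5384 cells, at levels of 0.426 and 0.141. Between AA+Ab and AA 1 was higher, *Raet1e*, and 1 lower, *Klrk1*, where 5.66% of genes were higher and 10.3% lower. The *Raet1e* call rests on 25 and 16 UMIs, with an interval that covers equal levels. Over 7 recomputed values the *Raet1e* log2 ratio was 0.45 to 0.70, the lowest under 1.5-fold.

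A UMI of *H60c* was found in 18.3%, 19.7% and 16.8% of keratinocytes, a narrower spread than the levels, with deeper cells in Neg. Thinned to 1000 UMIs the shares were 1.53%, 2.47% and 2.05%. In lymphocytes, which are not known to make it, *H60c* had 7, 4 and 1 UMIs, in 2%, 0.858% and 0.243% of cells. Thinned, it was in 0 of 248 Neg lymphocytes, which allows up to 1.21%, and in 1 cell of each other library.

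*H60c* differed between the kinds of keratinocyte. Pooled over libraries, the basal epidermis-like clusters had levels of 40.6, 35.0 and 29.5, the interferon-responding cluster 37.0, and the suprabasal epidermis-like clusters 25.2 and 24.0. By library, basal clusters 0 and 1 had higher levels than both suprabasal clusters in each library (with overlapping intervals for clusters 1 and 12 in AA), while the third basal cluster had 24.6, 31.1 and 29.5, with intervals that overlapped theirs. The outer bulge and root sheath-like cluster had 12.0 and the upper hair follicle-like cluster 7.63. Inner root sheath-like cells had 0.275, the cluster led by *Wif1* and *Lef1*, genes of the hair matrix, 0.315, and hair cortex and cuticle-like cells 0.506. *H60c* thus was high in epidermis-like cells and had 3 to 17 UMIs in each of these last 3 clusters; a cluster led by *Krt24* had 24.7 and cycling cluster 7 had 22.5.

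The higher level in AA was seen across these layers. Basal epidermis-like cells had *H60c* levels of 29.8, 38.6 and 39.3, with AA above Neg by 0.37 (0.25 to 0.50) and AA+Ab to AA at 0.03 (-0.08 to 0.14). The third basal cluster, with the lowest *H60c* of them, held 267 of 2230 Neg, 1073 of 3740 AA and 283 of 2992 AA+Ab basal epidermis-like cells. Suprabasal epidermis-like cells had 20.1, 29.8 and 24.9, with AA above Neg by 0.57 (0.35 to 0.80) and AA+Ab to AA at -0.26 (-0.48 to -0.05). Cycling keratinocyte-like cells had 4.45, 10.2 and 6.59, with AA above Neg by 1.19 (0.77 to 1.62). Cycling cluster 7 held 218 of 636 Neg and 302 of 729 AA cells of this kind. No single keratinocyte cluster with enough UMIs had a log2 ratio above 1.07, and the part of the mix in the 1.19 was not tested.

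Of the 11 keratinocyte clusters with at least 20 *H60c* UMIs over AA and Neg, 9 were higher in AA, 6 of them beyond the interval, and 0 were lower beyond it. Against AA, AA+Ab was lower in 9 of 11, beyond the interval in 2, cycling cluster 7 and the outer bulge and root sheath-like cluster. With the clusters weighted to their share of Neg keratinocytes the log2 ratio was 0.47 for AA to Neg and -0.14 for AA+Ab to AA. At 0.47 *H60c* was no longer past 1.5-fold. The difference between AA and Neg thus was present within clusters, and that between AA+Ab and AA was smaller at equal shares of clusters.

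*Ulbp1*, the mouse member of the ULBP family also known as MULT1, was highest in other keratinocyte clusters. Its level in keratinocytes was 4.05 in Neg, 3.14 in AA and 4.13 in AA+Ab, from 403, 346 and 462 UMIs. AA was the lowest, at -0.37 (-0.58 to -0.16) against Neg, and AA+Ab was above AA by 0.40 (0.19 to 0.60). Neither passed 1.5-fold, but with cells thinned to 1000 UMIs AA+Ab to AA was 1.02, on 32 and 17 UMIs. AA+Ab and Neg did not differ beyond counting error (0.03, -0.17 to 0.22).

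Pooled over libraries, *Ulbp1* was highest in cycling cluster 7, at 20.97, then in inner root sheath-like cells at 10.6 and in cycling cluster 6, led by *Ntn1*, *Tmtc1* and *Sox5*, at 7.74. The cluster led by *Wif1*, *Cldn10* and *Lef1* had 3.83, and the basal and suprabasal epidermis-like clusters had 0.689 to 1.82. The intervals of inner root sheath-like cells (9.03 to 12.5) and of cycling cluster 6 (6.83 to 8.75) did not overlap when pooled, but by library they did in Neg and AA, and not in AA+Ab. *Ulbp1* thus was high in inner root sheath-like cells, where *H60c* was nearly absent, but highest in cycling cluster 7, the one cluster that held both at over 20. The basal, suprabasal and interferon-responding epidermis-like clusters held 13.8% of its UMIs.

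Cycling keratinocyte-like cells had *Ulbp1* levels of 12.0, 12.0 and 11.3, with no difference beyond counting error. Inner root sheath-like cells had 9.03, 7.71 and 15.8 on 57, 31 and 67 UMIs, and AA+Ab was above AA by 1.04 (0.40 to 1.70). Basal cluster 1 went the other way, with AA+Ab to AA at -1.25 (-2.21 to -0.36). The cluster led by *Wif1* had 3.99, 2.23 and 4.85, where AA was below Neg, at -0.84 (-1.48 to -0.23), and AA+Ab above AA, at 1.12 (0.55 to 1.73). Of 7 clusters with enough UMIs, 1 was higher in AA than in Neg, basal cluster 1, and it was so beyond its interval (2.81 against 1.32). In AA against Neg the cluster led by *Wif1* was the one of the 7 that was lower beyond its interval.

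A UMI of *Ulbp1* was found in 5.09%, 2.82% and 4.38% of keratinocytes, and thinned in 0.298%, 0.200% and 0.404%. In lymphocytes, *Ulbp1* was at 7.84, 17.9 and 13.1, on 12, 35 and 23 UMIs. Pooled over libraries, the cycling CD8 T cell-like sub-cluster held 19 *Ulbp1* UMIs in 22 cells (3, 14 and 2 UMIs in 4 Neg, 13 AA and 5 AA+Ab cells), a level of 101 (60.8 to 158), against 11.7 (5.83 to 20.9) in the *Ccl4* sub-cluster. The cluster led by *Wif1*, with *Ulbp1* at 3.83, also passed the markers of cycling cells, so *Ulbp1* was not high in every cluster with those markers.

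*H60c* and *Ulbp1* were seen together in 138 of 21849 keratinocytes, which is 3.45% of the cells with *H60c*, while 4.06% of the cells without *H60c* had *Ulbp1*. By library the shares were 4.06% and 5.32% in Neg, 3.16% and 2.73% in AA, and 3.36% and 4.59% in AA+Ab, so AA went the other way.

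**Figure D4:**
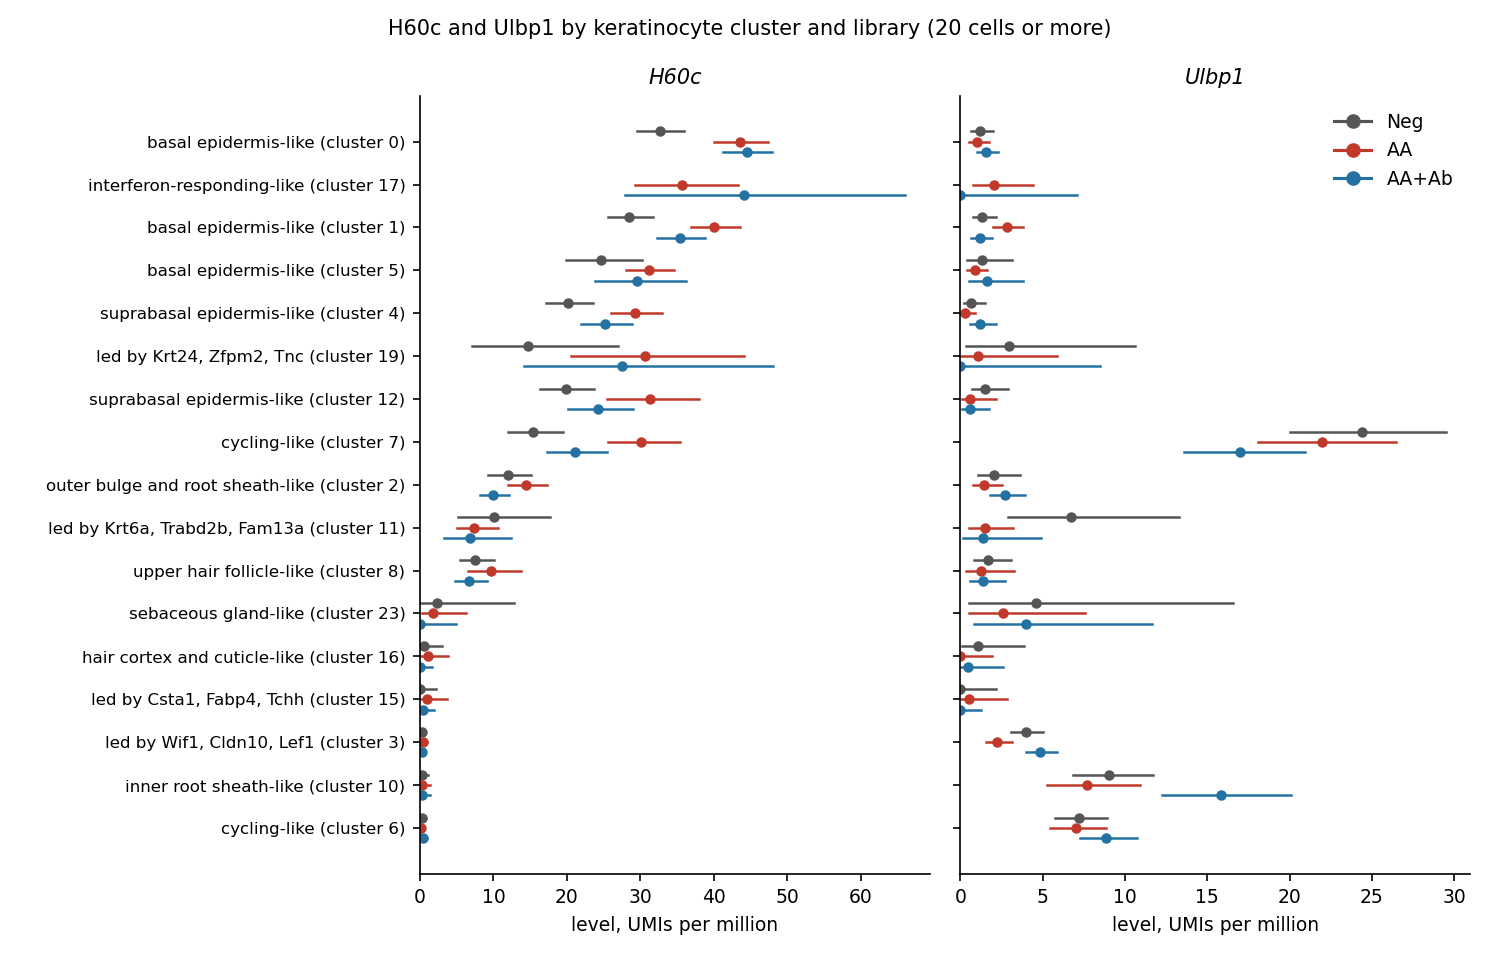
Levels of *H60c* and *Ulbp1* (CPM, x axes) in each keratinocyte cluster with at least 20 cells in a library, ordered by the pooled *H60c* level; points are single libraries, bars exact 95% Poisson intervals. *H60c* fills the epidermis-like clusters in the upper part, and *Ulbp1* the cycling and inner root sheath-like clusters, with cluster 7 high in both.

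*Raet1e*, of the RAE-1 family, was the ligand gene found mostly in immune cells, with the uncertainty of its shared exons. Its level in lymphocytes was 77.8, 79.7 and 71.7, with a log2 ratio of AA to Neg of 0.04 (-0.32 to 0.39). Keratinocytes had 0.201, 0.145 and 0.223 on 20, 16 and 25 UMIs. DC and macrophage-like cells had 68.8, 56.7 and 55.7, and monocyte and neutrophil-like cells 258, 75.5 and 198 in 27, 15 and 91 cells.

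*Raet1e* had levels of 350, 465 and 608 in CD4 T cell-like cells, on 4, 38 and 34 UMIs. CD8 T cell-like cells had 368 in Neg, 91.4 in AA and 116 in AA+Ab, on 76, 89 and 47 UMIs. Gamma-delta T cell-like cells had 1 UMI in 132 Neg cells and 0 in 100 AA and 186 AA+Ab cells. CD4 T cell-like cells were thus above CD8 T cell-like cells beyond the intervals in AA and AA+Ab but not in Neg, and *Raet1e* was nearly absent from the cells of the epidermis that carry much *Klrk1*.

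The CD8 T cell-like cells had less *Raet1e* in AA than in Neg, at -2.01 (-2.47 to -1.55) on the log2 scale, while they had more *Klrk1*. A *Raet1e* UMI was found in 52.9% of Neg, 19.4% of AA and 29.7% of AA+Ab cells, and thinned in 32.4%, 9.6% and 11.6%. Within the *Lef1* sub-cluster the level was 468, 232 and 225, and AA was below Neg by a smaller step, at -1.01 (-1.65 to -0.40). In the *Ccl4* sub-cluster it was 418 in Neg (191 to 794), 63.4 in AA (46.4 to 84.5) and 41.0 in AA+Ab. The Neg value rests on 9 UMIs in 2 of 4 cells, too few to place a difference within this sub-cluster. The difference thus went in part with the sub-clusters and in part lay within the *Lef1* sub-cluster.

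*H60b* had 18 UMIs in all, 10 of them in cycling cluster 6 (0 in Neg, 6 in AA and 4 in AA+Ab) and 5 in the T cell-like cluster. *Raet1d* had 6 UMIs, in 5 clusters. No comparison between libraries was made for them.

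Genes known to act on the ligands were examined in keratinocytes. Of 13 tested regulators (DNA damage kinases, E2F factors, p53, heat shock and stress genes), none was higher or lower in AA than in Neg, and the median log2 ratio was -0.12, beside -0.06 over all genes, of which 6.08% were higher and 9.07% lower. At such shares few calls among 13 genes are the rule. In AA+Ab against AA, 3 were lower and none higher, with a median of -0.04, beside 10.3% and 5.66% of all genes. These were the heat shock genes *Hspa1a* (250 against 519) and *Hspa1b* (226 against 346) and the stress factor *Atf4* (171 against 268). Both *Hspa1* genes can respond to tissue dissociation, and their part in the ligand levels was not tested.

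Of 9 genes of the interferon response in keratinocytes, 7 were higher and none lower in AA than in Neg, with a median of 1.38, beside 6.08% and 9.07% of all genes. *Irf1* and *Iigp1* were at 72.6 and 51.8 against 37.9 and 0.382, and the chemokine *Cxcl10* was at 33.8 against 18.6. In AA+Ab against AA 6 were lower and none higher (10.3% and 5.66% of all genes), with a median of -1.21, and *Iigp1*, *Cxcl10* and *Isg15* were at 4.4, 14.8 and 4.44. Like *H60c*, *Irf1* and *Iigp1* were highest in AA and lowest in Neg, while *Cxcl10* and *Isg15* were lower in AA+Ab than in Neg (*Isg15* 6.54 in Neg). The share of the interferon-responding cluster, which *Iigp1* leads, moved with these levels. It held 7 Neg, 258 AA and 38 AA+Ab cells, or 0.113%, 2.71% and 0.422% of the cells kept. Its part in the levels over all keratinocytes was not tested. In the interferon-responding cluster itself *H60c* was at 36.4, 35.7 and 44.1 on 3, 105 and 23 UMIs, with AA to Neg at -0.03 (-1.61 to 2.27).

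The genes most alike each member were ranked by correlation of log2(level + 1) over 78 units of a class and library with at least 20 cells, which share libraries and depth, so the correlations are descriptions only. For *Klrk1* these were *Ly9* (r = 0.96), *P2ry10*, *Jakmip1*, *Cd2* and *Tespa1*, and for *Hcst* they were *Ltb* (0.95), *Cd69*, *Cd53*, *Dennd1c* and *Acap1*. For *Raet1e* they were *Gpr132* (0.96), *Gmfg*, *Cd84*, *Bcl2a1d* and *Snx20*. For *Ulbp1* they were *Atad2* (0.78), *Cep192*, *Dbf4*, *Smc4* and *Racgap1*, and for *H60c* they were *Col17a1* (0.89), *Capns2*, *Gm48893*, *Ndufa4l2* and *Trim7*. *Klrk1* and *Hcst* had r = 0.84 with each other, and *H60c* and *Ulbp1* had r = -0.18.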

How the data were processed

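Each deposited matrix gives whole-number UMI counts, a value for each pair of gene and cell barcode. Per the labels and the submitters' processing notes, the authors made them with Cell Ranger 7.2.0 on mm10 after FastQC 0.11.7, without normalization. The annotation release and whether intronic reads were counted are not given in the sources used here.

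Barcodes were kept at up to 10% mitochondrial UMIs and from 200 genes on. Doublets were then left out, scored against 2 simulated doublets per cell in 20 components, at 0.8% per 1000 barcodes (367 Neg, 908 AA and 826 AA+Ab). Clusters were rebuilt in Seurat 5.3.0 (R 4.3.3) with 2000 variable genes, 30 components (15 for lymphocytes) and resolution 0.8, and named from at least 3 markers. For lymphocyte sub-clusters a marker had to be in 25% of cells, at or above its level in the other lymphocytes. Other steps used Python 3.11.15, NumPy 2.4.6, SciPy 1.17.1, scikit-learn 1.9.0 and matplotlib 3.10.9. Ratios of levels carry conditional binomial intervals, levels Poisson intervals and shares Clopper-Pearson intervals. Scripts were tested on simulated data. A count of 0 was given the upper limit of 3 counts. Within lists, up to 4 genes past 1.5-fold were named, those with the most UMIs. A gene of the interferon list that this rule names is not reported here. Members, lists and thresholds were chosen with earlier results of these data known.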

Additional observations from a re-analysis of the deposited data

Results flagged for a closer look

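*Ulbp1* went opposite ways in lymphocytes and keratinocytes between AA and Neg. The log2 ratio of its level was 1.189 in lymphocytes (0.21 to 2.27, on 35 and 12 UMIs) and -0.3674 in keratinocytes (-0.58 to -0.16, on 346 and 403 UMIs). The values were singled out because the signs differ between the classes, and the difference was not tested, since each group is 1 library. In AA lymphocytes 5 of the 35 UMIs came from 1 cell, and in AA keratinocytes 16 of the 346 came from 1 cell. *Ulbp1* levels of lymphocytes were 7.84, 17.9 and 13.1 in Neg, AA and AA+Ab.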

How the results depend on the processing

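No paired analysis was possible because each group is 1 library. The log2 ratios of levels kept their direction in 192 of 204 recomputed values over 30 results. *Klrk1* in lymphocytes, AA to Neg (0.84), was 0.29 at resolution 1.5, 2.08 with lymphocytes taken by their own UMIs and 0.15 with sub-clusters weighted to Neg. AA+Ab to AA (-0.31) was -0.64 thinned, 0.078 at resolution 1.5, -0.97 by own UMIs and 0.30 weighted. In the set taken by own UMIs, 475 of 717 Neg, 387 of 808 AA and 518 of 893 AA+Ab cells lay in keratinocyte clusters. These cells held 90.3%, 78.8% and 86.7% of its UMIs. *Hcst*, AA to Neg (0.25), was 0.018 at resolution 1.5, 1.57 by own UMIs and -0.28 weighted. AA+Ab to AA (0.00) was -0.21 thinned, -0.74 by own UMIs and 0.19 weighted, and AA+Ab to Neg was -0.10 weighted. *Ulbp1* in keratinocytes, AA+Ab to AA (0.40), was 1.02 thinned, on 32 and 17 UMIs. *H60c* in keratinocytes, AA to Neg (0.66), was 0.78 with doublets kept and 0.47 with clusters weighted to Neg, and AA+Ab to AA (-0.35) was -0.14 weighted. Weighting of sub-clusters and leaving out the sub-cluster led by keratinocyte genes were chosen after seeing the data. The cause of these shifts was not tested beyond what each setting changes.

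Intervals cover counting error only, so differences between mice, pools and preparations cannot be told apart from those between groups. Collagenase digestion and the Percoll gradient select cells, so shares of cells are shares of recovered cells. Raw counts near 0, as for *Raet1d* and *H60b*, are below what this depth can compare. Names of clusters rest on markers, and the 3′ assay reads transcripts mapped to a C57BL/6J reference in C3H/HeN mice, which bears on *Raet1e*.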
